A study of Mus musculus with 12 samples.

Results

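Fc gamma receptors bind the constant part of IgG antibodies, and 10 genes for these receptors and for proteins that work beside them in myeloid cells were followed through 12 mouse tumors. The genes were the activating receptors Fcgr1, Fcgr3 and Fcgr4, the inhibitory receptor Fcgr2b, the signaling adaptors Fcer1g and Tyrobp, and the myeloid proteins Trem2, Cd84, Cd68 and Csf1r. They are 10 of the 23420 genes in the count table, and all 10 were among the 13095 genes that passed the filter on low counts. They were chosen by their function around Fcgr3, which was selected on its response to anti-PD-1 in non-obese mice, where it had the smallest P value, and with earlier results of these data known. Values from non-obese tumors, and every difference that includes them, are therefore given as a description, and the response in obese mice is tested.

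The tumors came from B16-F10 cells, a melanoma line of C57BL/6 origin, placed under the skin of the right flank of male C57BL/6J mice with an intact immune system. Feeding began at 4 to 5 weeks of age. Obese mice received a Western diet with 0.2% cholesterol for 15 weeks, until their weight had increased by 50%, and non-obese mice received the matching control diet. Once tumors could be felt, each mouse was injected intraperitoneally 3 times a week with an antibody at 10 mg/kg, either anti-PD-1 (clone 29F.1A12), which blocks the T cell checkpoint receptor PD-1, or isotype control (clone 2A3). Each of the 4 groups (non-obese isotype, non-obese anti-PD-1, obese isotype, obese anti-PD-1) held 3 tumors, collected on day 16, and every group carried the same single tumor line and received an injected antibody. The labels number the tumors within a group as replicates and say no more about them. P values of the fit set the difference between groups against the spread of tumors within groups, estimated from all 12.

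In myeloid cells, an activating Fc gamma receptor that is crosslinked by antibody-coated targets signals through the ITAM motif of its partner, the common gamma chain encoded by Fcer1g. Src-family kinases phosphorylate the ITAM, Syk is recruited, and phagocytosis, an oxidative burst and cytokine release can follow, while Fcgr2b carries an inhibitory ITIM and recruits the phosphatase SHIP1 to dampen this signal. Tyrobp, also called DAP12, is a second ITAM adaptor that serves other receptors, among them Trem2, and Csf1r, the receptor for CSF1 and IL-34, maintains macrophages.

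Libraries held 14022929 to 33871843 counts, and the lowest count of any of the 10 genes in any tumor was 29, for Cd84. Levels are given as CPM, counts scaled to library size after TMM scaling, a correction for library composition. Melanoma markers (6 genes) summed to 23700 to 29500 CPM across all tumors, and macrophage and monocyte markers (14 genes, none of them among the 10) to 147 to 546 CPM, with none of those 14 at 0 throughout. In bulk tumors, a change in the number of cells of a type and a change in RNA per cell cannot be told apart.

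Promoters are shown for Fcgr1, Fcgr3, Fcgr4 and Trem2 because each holds, within the 150 bases before a RefSeq start site, the letters GAGGAA, the core favored by the myeloid transcription factor PU.1. RefSeq (build GRCm38.p6) gave a promoter entry for 8 of the 10 genes. The stretches are chr3:96293970-96294119 (minus strand) for Fcgr1, chr1:171059404-171059553 (minus strand) for Fcgr3, chr1:171018776-171018925 (plus strand) for Fcgr4 and chr17:48346251-48346400 (plus strand) for Trem2. All are written 5′ to 3′ in the direction of transcription, with the match in capitals, and in all 4 it lies on the opposite strand and so reads TTCCTC.
Fcgr1: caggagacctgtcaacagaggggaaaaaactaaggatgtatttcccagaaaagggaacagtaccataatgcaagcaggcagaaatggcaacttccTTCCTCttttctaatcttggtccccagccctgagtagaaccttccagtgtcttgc
Fcgr3: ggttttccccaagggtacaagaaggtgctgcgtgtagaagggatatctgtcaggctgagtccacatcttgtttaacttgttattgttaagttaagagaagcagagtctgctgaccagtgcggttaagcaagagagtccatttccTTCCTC
Fcgr4: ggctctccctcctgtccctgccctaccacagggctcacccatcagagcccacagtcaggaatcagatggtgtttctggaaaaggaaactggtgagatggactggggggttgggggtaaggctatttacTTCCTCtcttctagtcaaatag
Trem2: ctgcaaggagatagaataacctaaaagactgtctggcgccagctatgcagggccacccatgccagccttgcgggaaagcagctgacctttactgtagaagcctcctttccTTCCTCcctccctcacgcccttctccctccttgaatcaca
The first base of the match lies 55 bases before the start in Fcgr1, 6 in Fcgr3, 22 in Fcgr4 and 40 in Trem2. The Fcgr3 start site is 1 of 2 that RefSeq lists, both inside the span of the gene.

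Over the whole promoter window of 300 bases (250 before and 50 after the start), GAGGAA on either strand was found in 6 of the 8 genes with an entry, namely Fcgr1, Fcgr3, Fcgr4, Trem2, Cd84 and Cd68. It was found in 28.3% of all 32817 promoters of this length. The STAT-type letters TTCNNNGAA, which read alike on both strands, occurred only in Fcgr1 among the 8 (8.29% of all promoters), and the interferon-response letters, GAAA repeated after a gap of 2 bases and searched on both strands, only in Fcgr4 (3.43%). These are matches of letters, and no binding was measured.

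The genes differed widely in level. Per kilobase of the longest coding transcript and over all 12 tumors, Cd68, a lysosomal glycoprotein of macrophages, was at 35.0 ± 10.2 CPM per kb (SD, n = 12), followed by Fcer1g at 24.4 ± 13 and Tyrobp at 18 ± 7.09. Among the Fc gamma receptors the order of mean level was Fcgr3 (11.6 ± 5.53 CPM per kb), Fcgr4 (5.01 ± 3.89), Fcgr2b (3.46 ± 0.899) and Fcgr1 (2.47 ± 1.45). In non-obese anti-PD-1 tumors the mean of Fcgr4 (2.08 CPM per kb) lay below that of Fcgr2b (2.56). Both stood furthest apart in obese anti-PD-1 tumors (10.1 and 4.20 CPM per kb). Trem2 lay at 7.11 ± 2.64, Csf1r at 6.92 ± 4.6 and Cd84 at 1.37 ± 0.563 CPM per kb. Neighbors in this order had overlapping ranges over the tumors. With the union of all annotated exons as the length, Trem2 fell from rank 5 to rank 9 (1.56 CPM per kb), since its longest coding transcript is 1088 bases and its exon union 4946. By that length Fcgr1 (2.47 CPM per kb) also lay above Fcgr2b (2.12).

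In obese mice, the fitted level of every one of the 10 genes was higher with anti-PD-1 than with isotype, and 3 of them, Fcgr4, Csf1r and Fcer1g, met the study's thresholds, a change of more than 2-fold and P under 0.05 before adjustment. Over all genes tested, 2.24% passed these thresholds in the higher direction. With P alone under 0.05, and no fold threshold, the count was 7 of 10, against 4.3% of all genes in that direction, and 0 of 10 reached an FDR below 0.05 by edgeR's quasi-likelihood test with Benjamini-Hochberg adjustment, as did 0% of all genes (991 genes had P below 0.05). DESeq2 gave an FDR below 0.05 to 2 of the 10, Fcgr4 (0.026) and Fcgr3 (0.0328), and to 105 of all genes. The 3 anti-PD-1 tumors lay above the 3 isotype tumors for 5 of the 10 genes (Fcgr4, Fcgr3, Fcgr2b, Tyrobp and Cd84), against 5.45% of all genes. The median log2 change of the 10 genes was 0.88, and that of all genes was -0.01.

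The count of 3 moved with single tumors. It was 6 without the first obese anti-PD-1 tumor, which was the lowest of its group for all 10 genes, and 5 without the first obese isotype tumor. Over all genes, 555 and 371 passed in the higher direction in these fits, against 293 in the main fit. The count among the 10 genes was 1, Fcgr4, without either the third obese anti-PD-1 tumor or the second obese isotype tumor. There, 187 and 203 of all genes passed. Fcgr4 passed in each of these fits.

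**Figure D1:**
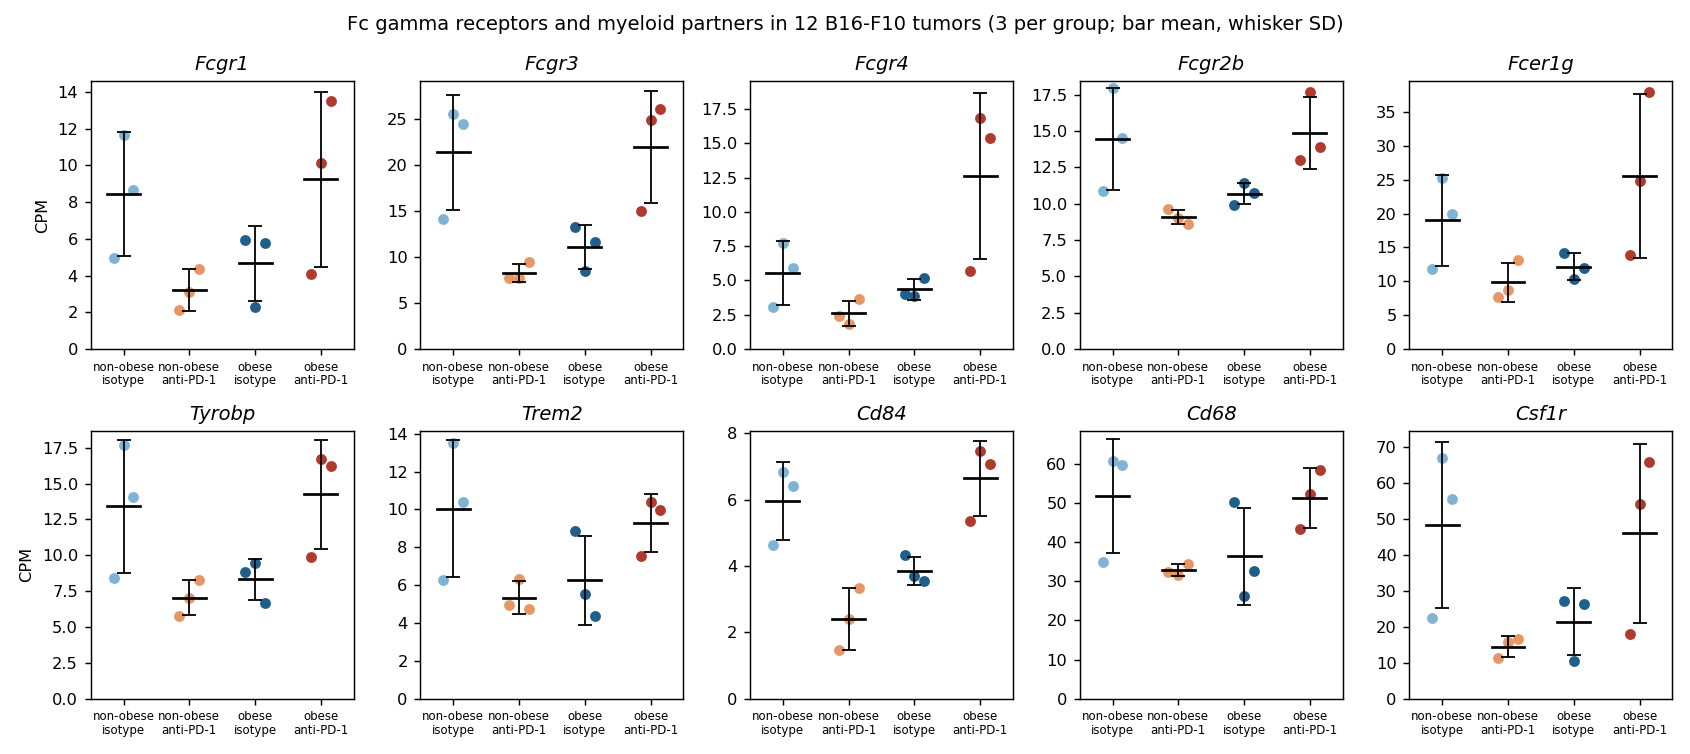
CPM of each of the 10 genes (vertical axes, separate scale for each gene, from 0) in the 12 tumors, 1 point per tumor, with a bar for the mean and whiskers for the SD of the 3 tumors in a group. The obese anti-PD-1 tumors of Fcgr4 (5.71 to 16.9 CPM) lie above its obese isotype tumors (3.85 to 5.20 CPM).

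Among the activating receptors, Fcgr4, a receptor for IgG2 antibodies on mouse monocytes, macrophages and neutrophils, had the largest change of the 10 genes. Its level was 4.0, 3.85 and 5.20 CPM in the 3 isotype-treated obese tumors and 5.71, 16.9 and 15.4 CPM in the anti-PD-1-treated ones. The groups did not overlap, though the first anti-PD-1 tumor lay close to the isotype tumors. The log2 fold change was 1.54 ± 0.41 (SE, n = 3 per group; edgeR FDR = 0.279). Without that first tumor it was 1.91 with an FDR of 0.0327. In that fit 76 of all genes reached an FDR below 0.05, against 0 in the main fit. Leaving out each tumor in turn gave Fcgr4 log2 fold changes from 1.30 to 1.91, with an FDR of up to 0.816.

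Fcgr3, a low-affinity receptor for immune complexes, was at 13.2, 8.46 and 11.6 CPM under isotype and at 15.0, 24.9 and 26.1 CPM with anti-PD-1 in obese mice. All 3 treated tumors were higher than all 3 isotype tumors. Its log2 fold change of 0.98 ± 0.26 (SE; edgeR FDR = 0.264) had the lowest FDR of the 10 genes and a fold change of 1.98, just under the threshold of 2.

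Fcgr1, the high-affinity IgG receptor, was at 5.93, 2.31 and 5.78 CPM under isotype and 4.09, 10.1 and 13.5 CPM with anti-PD-1 in obese mice. The groups overlapped, because the first anti-PD-1 tumor lay below 2 of the isotype tumors. The log2 fold change of 0.98 ± 0.45 (SE; edgeR FDR = 0.658) missed both thresholds.

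The inhibitory receptor Fcgr2b was at 9.93, 11.4 and 10.7 CPM under isotype and at 13, 17.7 and 13.9 CPM with anti-PD-1 in obese mice. The groups did not overlap, and the isotype values lay closer together (SD 0.738 CPM) than the anti-PD-1 values (SD 2.48 CPM). Its log2 fold change, 0.48 ± 0.19 (SE; edgeR FDR = 0.548), was the smallest of the 10 genes and did not pass the fold threshold.

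Fcgr3 and Fcgr2b share near-identical sequence. Of the 100-base windows of the Fcgr3 transcript, the read length used, 44 of 1248 (3.53%) also occur in Fcgr2b, and 122 of 3445 windows of Fcgr2b (3.54%) occur in another gene, Fcgr3 among them. The aligned part of their transcripts was 96.5% identical over 509 bases, and reads from the shared windows cannot be assigned to a single gene. With both counts summed, the log2 change in obese mice was 0.76. The other 8 genes shared no such window with any gene.

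The balance of receptors was also described per tumor, with no test, since the ratio was chosen after the values were seen. In obese mice, the ratio of Fcgr4 CPM to Fcgr2b CPM was 0.403, 0.337 and 0.484 under isotype and 0.438, 0.953 and 1.10 under anti-PD-1. The last 2 of these anti-PD-1 tumors lay above all other tumors, and the first lay within the isotype range. In non-obese mice the ratio was 0.283, 0.430 and 0.406 under isotype and 0.249, 0.202 and 0.420 under anti-PD-1. For Fcgr3 over Fcgr2b, the mean was 1.05 ± 0.295 (SD, n = 3) and 1.48 ± 0.365 in obese mice, and 1.47 ± 0.194 and 0.916 ± 0.153 in non-obese mice, with isotype and anti-PD-1 respectively.

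**Figure D2:**
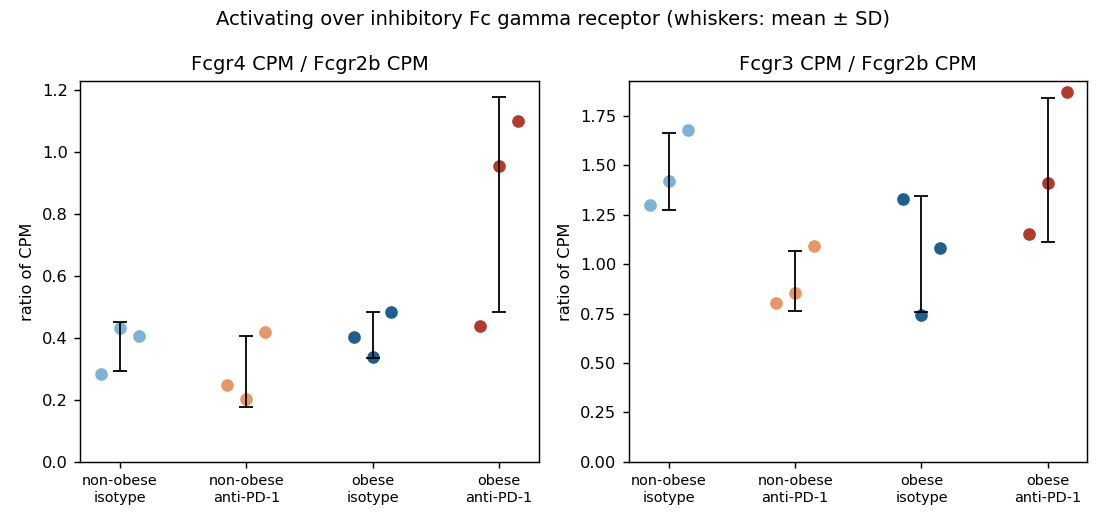
Ratio of the CPM of an activating receptor to that of Fcgr2b (vertical axes, from 0) in each tumor, for Fcgr4 (left) and Fcgr3 (right), with whiskers for mean ± SD of the 3 tumors in a group. For Fcgr4, obese anti-PD-1 tumors 2 and 3 stand at 0.953 and 1.10, and all other tumors are at 0.484 or lower.

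The adaptor Fcer1g was at 14.2, 10.3 and 11.9 CPM under isotype and at 13.8, 24.8 and 38.0 CPM with anti-PD-1 in obese mice. The first anti-PD-1 tumor lay just below the highest isotype tumor, so the groups overlapped. The log2 fold change was 1.08 ± 0.34 (SE; edgeR FDR = 0.415). It passed the thresholds, but not without the third anti-PD-1 tumor, where it was 0.68, or without the second isotype tumor, where it was 0.99. The call on Fcer1g was also lost with the replicate number fitted as a block. Under the alternatives that kept all obese tumors, its log2 change was 0.95 to 1.11.

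Tyrobp, the adaptor of Trem2, was at 8.83, 9.44 and 6.68 CPM under isotype and at 9.87, 16.7 and 16.2 CPM with anti-PD-1 in obese mice. The groups were separate by a small margin. The log2 fold change was 0.78 ± 0.27 (SE; edgeR FDR = 0.486), under the fold threshold.

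Trem2, a lipid-binding receptor of macrophages, was at 8.88, 5.53 and 4.35 CPM under isotype and 7.54, 10.4 and 9.99 CPM with anti-PD-1 in obese mice, with overlapping groups (log2 0.57 ± 0.30, edgeR FDR = 0.697). Cd84, a self-binding receptor of the SLAM family, was at 4.33, 3.71 and 3.53 CPM under isotype and at 5.36, 7.48 and 7.07 CPM with anti-PD-1, and its groups did not overlap (log2 0.78 ± 0.28, edgeR FDR = 0.504). Neither passed the thresholds.

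Cd68 ranged from 26.3 to 50.3 CPM under isotype and from 43.4 to 58.5 CPM with anti-PD-1 in obese mice, with overlap (log2 0.50 ± 0.23, edgeR FDR = 0.662). Csf1r was at 27.2, 10.6 and 26.4 CPM under isotype and at 18.1, 54.1 and 65.8 CPM with anti-PD-1. The groups overlapped, and the standard error was the largest of the 10 genes. The log2 fold change was 1.10 ± 0.47 (SE; edgeR FDR = 0.611). The call on Csf1r was lost without the second or the third anti-PD-1 tumor (log2 0.98 and 0.77) or the second isotype tumor (0.80), and with DESeq2, by its unadjusted P. It was also lost with the replicate number fitted as a block. An overlapping gene on the opposite strand, Hmgxb3, shares 873 bases with Csf1r, and Gm38204 lies antisense to Fcgr2b. Whether the counting used strand is not given in the sources used here.

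**Figure D3:**
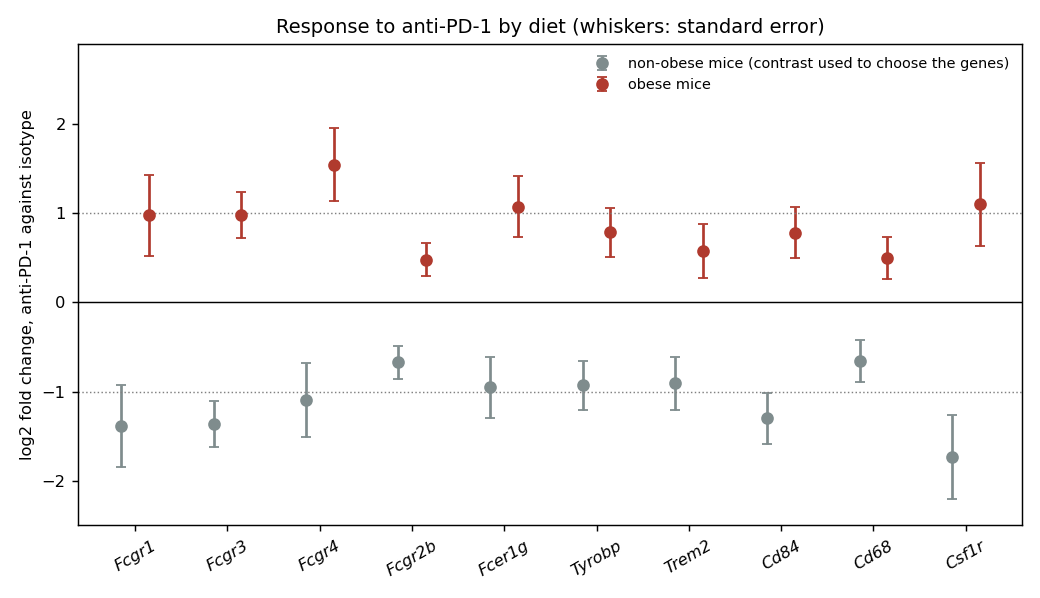
Log2 fold change with anti-PD-1 against isotype (vertical axis, dotted lines at a fold change of 2) for each gene in non-obese mice (gray) and obese mice (red), with whiskers for the standard error of the fit. All 10 gray points lie below 0, in the contrast that was used to choose the genes, and all 10 red points above it.

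In non-obese mice, given as a description, every one of the 10 genes had a lower fitted level with anti-PD-1 than with isotype. The log2 changes ran from -1.73 ± 0.47 (SE) for Csf1r to -0.66 ± 0.23 for Cd68, with a median of -1.03 against 0.02 for all genes. Past the study's thresholds were 5 of the 10, where 2.31% of all genes passed in the lower direction, and 7 of 10 had groups that did not overlap, against 5.37%. Since this contrast chose the genes, nothing is read from these counts. The count of 5 was 8 without the first non-obese isotype tumor, the lowest of its group for all 10 genes, and 3 without the second, the highest for all 10.

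Fcgr3 went from 14.1, 25.5 and 24.5 CPM with isotype to 7.73, 7.70 and 9.41 CPM with anti-PD-1 in non-obese mice (log2 -1.37 ± 0.26, SE). The treated tumors were close to each other and below every isotype tumor. Csf1r was at 22.4, 67.1 and 55.5 CPM under isotype and at 11.2, 15.7 and 16.5 CPM with anti-PD-1, again without overlap. Fcgr4 was at 3.08, 7.70 and 5.91 CPM under isotype and at 2.39, 1.82 and 3.61 CPM with anti-PD-1 (log2 -1.10 ± 0.41, SE). Here the groups overlapped, since the third treated tumor lay above the first isotype tumor.

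For Fcgr1, the non-obese values were 4.95, 11.7 and 8.69 CPM under isotype, and under anti-PD-1 they ranged from 2.1 to 4.37 CPM. Fcgr2b was at 10.9, 17.9 and 14.5 CPM under isotype and at 9.61, 9.03 and 8.61 CPM with anti-PD-1. Both genes had separate groups, with log2 changes of -1.39 ± 0.46 and -0.67 ± 0.19 (SE). Cd84 (log2 -1.30 ± 0.29) and Tyrobp (-0.93 ± 0.27) were also separate, at 4.62 to 6.82 CPM and 8.45 to 17.7 CPM under isotype and 1.47 to 3.34 CPM and 5.79 to 8.25 CPM with anti-PD-1. Fcer1g (-0.95 ± 0.34) and Trem2 (-0.91 ± 0.30) had overlapping groups.

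Between diets, described without a test, isotype-treated tumors of obese mice had lower fitted levels of all 10 genes than those of non-obese mice. The median log2 difference was -0.66, with values from -1.17 (Csf1r) to -0.35 (Fcgr4). Without the second non-obese isotype tumor the Fcgr4 value was -0.04, and without the first it was -0.65. Groups did not overlap for 2 of the 10, Fcgr3 and Cd84, against 9.02% of all genes in that direction. With anti-PD-1, obese tumors had higher levels of all 10 genes, with a median of 1.40, from 0.65 (Cd68) to 2.29 ± 0.42 (SE) for Fcgr4. Groups did not overlap for 9 of 10, all but Fcgr1, against 6.54% of all genes. These contrasts share tumors with the 2 responses. The obese minus non-obese difference in log2 response ran from 1.15 for Cd68 to 2.83 ± 0.67 (SE) for Csf1r, with a median of 2.05 against -0.04 for all genes.

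To set the genes beside macrophage genes in general, the mean log2 CPM of the 14 macrophage and monocyte markers was subtracted from each gene in each tumor. In obese mice, the groups of all 10 genes then overlapped. Fcgr4 kept the largest difference, with means of -0.925 ± 0.462 (SD, n = 3) in the isotype group and -0.357 ± 0.200 in the anti-PD-1 group, or 0.568 on the log2 scale, with P = 0.2 in a two-sided exact permutation test. The other 9 lay between -0.355 (Fcgr2b) and 0.207 (Csf1r), with exact P from 0.4 to 1.0. With 3 tumors against 3, this test cannot go below 0.1, and 10 genes were compared. The marker mean itself was 3.06 ± 0.540 under isotype and 3.88 ± 0.659 under anti-PD-1 (exact permutation P = 0.3). With Ptprc, a gene of all leukocytes, as the reference instead, the Fcgr4 difference was 0.16. The other 9 were then all negative, from -0.760 (Fcgr2b) to -0.199 (Csf1r). With the 14 markers as the reference, leaving out each tumor gave Fcgr4 differences from 0.336 to 0.798.

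**Figure D4:**
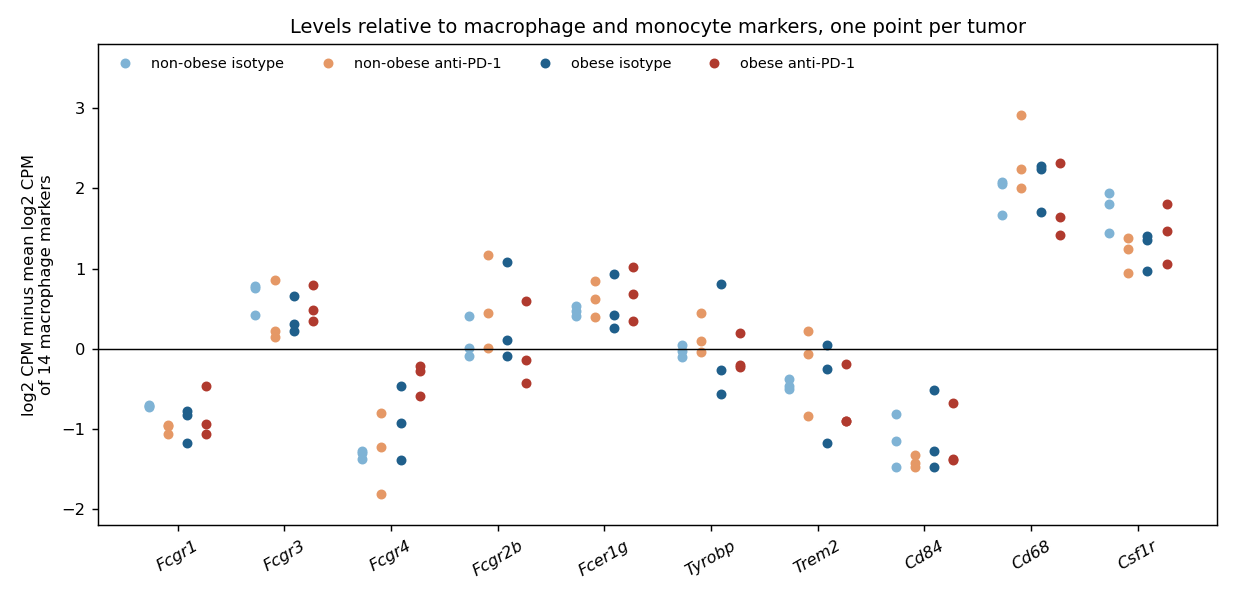
Log2 CPM of each gene minus the mean log2 CPM of 14 macrophage and monocyte markers (vertical axis), 1 point per tumor, colored by group. In Fcgr4, the obese anti-PD-1 points average -0.357 and the obese isotype points -0.925, with overlap, and in the other 9 genes the obese groups overlap as well.

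Of the 14 macrophage markers, 14 had a positive log2 change in obese mice and 1, Aif1 (log2 1.29 ± 0.49, edgeR FDR = 0.538), passed the thresholds. Their summed level was 197 to 320 CPM under isotype and 267 to 546 CPM with anti-PD-1 in obese mice, and 231 to 501 CPM and 147 to 232 CPM in non-obese mice. Other cell types moved as well. T cell markers (4 of 5 tested passed, all higher) summed to 1.18 to 1.72 CPM under isotype and 3.88 to 11.7 CPM with anti-PD-1 in obese mice, and to 1.25 to 2.85 CPM and 0.457 to 1.47 CPM in non-obese mice. Adipocyte markers (3 of 3 passed, all higher) went from 0.715 to 1.89 CPM to 4.13 to 17.5 CPM in obese mice, against 1.80 to 6.11 CPM and 0.407 to 1.25 CPM in non-obese mice. For skeletal muscle markers (1 of 3 passed, higher) the sums in obese mice were 7.53 to 55.9 CPM and 19.5 to 260 CPM. In non-obese mice they were 9.47 to 171 CPM and 5.49 to 154 CPM. Fibroblast markers (0 of 3 passed) summed to 52.2 to 384 CPM and 163 to 730 CPM in obese mice. In non-obese mice their sums were 271 to 1100 CPM under isotype and 112 to 202 CPM with anti-PD-1. The part of these cell types in the results for the 10 genes was not tested.

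Among other cells that can carry Fc gamma receptors, neutrophil markers summed to 1.38 to 1.89 CPM under isotype and 2.55 to 3.45 CPM with anti-PD-1 in obese mice, mostly from Csf3r, and Mpo was at 0 in all tumors. The defining neutrophil genes S100a8 and S100a9 had at most 15 and 14 counts in any tumor. Natural killer cell markers summed to 0.477 to 0.699 CPM and 1.20 to 7.28 CPM, and Ncr1, the gene that defines these cells, had at most 7 counts in a tumor. Of the 2 tested in that list 1 passed, Prf1 (log2 4.22 ± 0.99, edgeR FDR = 0.206), which averaged 0.143 and 2.86 CPM. It reached 5.90 CPM with anti-PD-1, and the other tested gene, Eomes, had a log2 change of 0.54. Which cells carried Prf1 was not tested, and T cell markers were higher in the same tumors. B and plasma cell markers summed to 1.67 to 2.36 CPM and 1.41 to 5.98 CPM. Of the 2 tested, 1 passed, Cd79b (log2 1.98 ± 0.74, edgeR FDR = 0.530), at 0.494 to 2.78 CPM with anti-PD-1. The other, Cd79a, had a log2 change of -0.08. Mast cell and basophil markers (0 of 3 passed) summed to 0.294 to 0.907 CPM and 0.564 to 3.42 CPM, with Ms4a2 at 0 in all tumors. Dendritic cell markers (0 of 3 passed) summed to 4.41 to 5.72 CPM and 5.36 to 7.33 CPM, mostly from Zbtb46 (means 3.69 and 4.12 CPM). Flt3, Xcr1, Clec9a and Siglech were too low to test. Melanoma markers were at 26300 to 28700 CPM and 25600 to 29500 CPM, and 0 of 6 passed.

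Genes of the pathways around these receptors were taken from 9 lists that exclude the 10 genes, and 83 of their genes could be tested. In obese mice 17 of the 83 (20.5%) passed a fold change above 2 with P below 0.05 in the higher direction and 0 in the lower direction, beside 2.24% of all genes in the higher direction. A positive log2 change was found in 68 of the 83, with a median of 0.65 against -0.01 for all genes. At P below 0.05 alone the count was 28 of 83, all higher, beside 4.3% of all genes in that direction. By edgeR 0 of 83 reached an FDR below 0.05, as did 0% of all genes. By DESeq2 5 of 83 did, beside 105 of all 13095 genes. The lists were drawn up with earlier results known.

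In ITAM signaling, 4 of 21 tested genes passed, all higher, with a list median of 0.37 on the log2 scale. Rac2, a GTPase of the leukocyte oxidative burst, had a log2 change of 1.65 ± 0.44 (edgeR FDR = 0.281). The Rac activator Dock2 (1.15 ± 0.43, FDR = 0.53) also passed. Syk (log2 0.37) and Lyn (0.34) did not. In NADPH oxidase, the enzyme of the oxidative burst, 1 of 5 passed, its catalytic subunit Cybb (1.14 ± 0.41, FDR = 0.497).

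Of the inhibitory receptors and phosphatases, 0 of 14 tested passed, and 3 had P below 0.05 by edgeR. Sirpa and Ptpn11 in this list averaged 312 and 222 CPM under isotype in obese mice, and which cells carried them was not tested. Inpp5d, which encodes SHIP1, the phosphatase recruited by Fcgr2b, was at 7.03 ± 2.85 CPM (SD, n = 3) under isotype and 14.1 ± 6.83 CPM under anti-PD-1 in obese mice, with overlap (log2 1.00 ± 0.42 SE). Ptpn6, which encodes the phosphatase SHP-1, had the smaller change of 0.40 ± 0.11 with separate groups (edgeR FDR = 0.295).

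Among other receptors that pair with Fcer1g or Tyrobp, 2 of 7 passed, Clec4n (Dectin-2, log2 1.27 ± 0.46, FDR = 0.512) and Clec4e (Mincle, 2.03 ± 0.93, FDR = 0.654), and the latter averaged only 0.128 and 0.619 CPM in the isotype and anti-PD-1 groups. In the list of colony stimulating factors and myeloid transcription factors, 3 of 14 passed. These were the transcription factors Irf8 (log2 1.60 ± 0.44, FDR = 0.286) and Sfpi1 (1.16 ± 0.39, FDR = 0.469), the gene for PU.1, and the cytokine receptor chain Csf2rb (1.27 ± 0.45, FDR = 0.486). The ligands of Csf1r, Csf1 and Il34, had log2 changes of 0.76 and 0.98 and did not pass.

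In the list around Trem2, 3 of 10 passed, Lpl (lipoprotein lipase, log2 1.69 ± 0.33, edgeR FDR = 0.192), the receptor kinase Axl (1.26 ± 0.30, FDR = 0.22) and the integrin Itgax (1.32 ± 0.52, FDR = 0.557). Lpl is also made by adipocytes, whose markers were higher in the same tumors. The list median was 0.15, and Gpnmb, which melanoma cells also express, stood at 9570 ± 608 CPM (SD, n = 3) under isotype and 9080 ± 869 CPM under anti-PD-1. In the SLAM family of Cd84, 4 of 6 tested passed, among them Slamf8 (log2 2.58 ± 0.85, FDR = 0.44), Cd244 (1.97 ± 0.66, FDR = 0.454) and Slamf9 (1.49 ± 0.52, FDR = 0.486). In the LAMP family, to which Cd68 is related, 0 of 3 passed and the median was -0.12. Lamp1, Lamp2 and Cd63 averaged 734, 230 and 1050 CPM under isotype in obese mice, against 36.4 CPM for Cd68. Which cells carried them was not tested, so this list does not stand for macrophages alone. Among Fc receptor relatives, 0 of 3 passed, and the other 8 were too low to test.

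**Figure D5:**
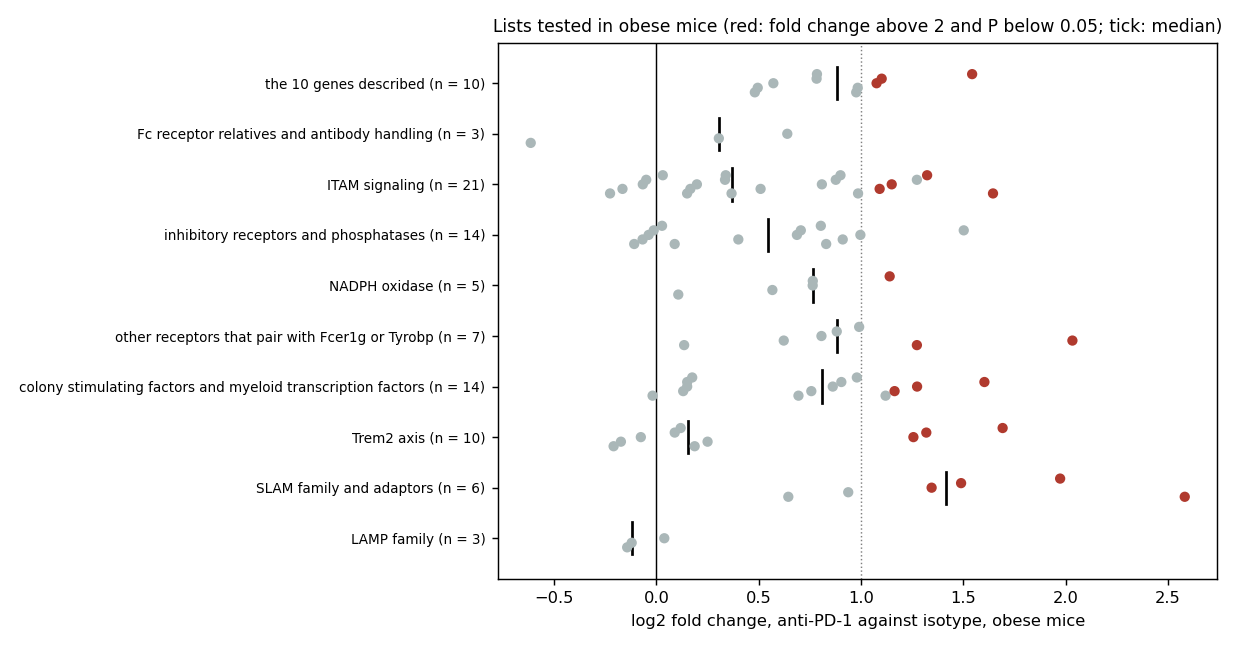
Log2 fold change with anti-PD-1 against isotype in obese mice (horizontal axis) for each tested gene of the 10 genes described and of 9 pathway lists, with a tick at the median of each list and red for genes with a fold change above 2 and P below 0.05. The SLAM list has the highest median (1.42) and the LAMP list the lowest (-0.12).

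The genes also varied together from tumor to tumor. Over the 12 tumors, the 45 pairs among the 10 genes had a median Pearson r of 0.853 on log2 CPM (range 0.647 to 0.983), and 0.706 (0.288 to 0.971) after group means were removed. These values are descriptive, and the tumors share depth and composition differences. Of all 13094 other genes ranked by r with Fcgr3, Csf1r was at rank 11 (r = 0.949), and Fcgr4 was the lowest of the members at rank 218 (r = 0.857). After group means were removed, Fcgr4 stood at r = 0.869 and the lowest of the members was Fcgr2b (0.541). Outside the 10 genes, those most like Fcgr3 were Alox5ap (r = 0.963), Il6ra (0.960), Ctss (0.958), C3ar1 (0.955) and Ms4a6d (0.955). Those most like the mean of the 10 were C1qb (0.978), C1qc (0.975), Ucp2 (0.972), Ctss (0.971) and Coro1a (0.971).

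Fcgr2b, Fcgr4, Fcgr3, Fcer1g and Cd84 lie within 930.2 kb of chromosome 1 (chr1:170960558-171890718, GRCm38.p6, RefSeq annotation). Fcgr2b spans chr1:170960558-170976071, Fcgr4 chr1:171018926-171029761, Fcgr3 chr1:171051169-171065915, Fcer1g chr1:171229572-171234349 and Cd84 chr1:171839697-171890718. The window holds 21 other tested genes. Their median log2 change in obese mice was -0.004, and 1 of them passed the thresholds, the SLAM gene Slamf7 (log2 1.34 ± 0.56, edgeR FDR = 0.603), named here after its value was seen. The remaining genes lie elsewhere, Fcgr1 at chr3:96282909-96293969, Tyrobp at chr7:30413782-30417582, Trem2 at chr17:48346401-48352276, Cd68 at chr11:69664213-69666170 and Csf1r at chr18:61105572-61131139.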

How the data were processed

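RNA from frozen B16-F10 tumors was made into TruSeq Stranded mRNA libraries. The submitters' processing notes name FastQC 0.11.5, STAR 2.7.0f, HTSeq 0.9.1, edgeR 3.28.1 and mm10. The authors aligned 100 bp single-end reads and deposited raw counts per gene symbol, without normalization. Here edgeR 4.0.16 (R 4.3.3) scaled counts by TMM, filterByExpr kept 13095 of 23420 genes (17519 had a count), and a quasi-likelihood F-test (legacy form) was fitted to all 12 tumors with 4 group means and 8 residual degrees of freedom. Log2 CPM used a prior count of 2. Libraries held 14022929 to 33871843 counts. The code was tested on simulated data.

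Alternatives were DESeq2 1.42.0, RLE scaling, other filters, 6 tumors only, a robust prior, a replicate block and leaving out each tumor. Positions and promoters are from RefSeq GRCm38.p6, the assembly behind mm10, and transcripts from GENCODE M21. Named genes were the 10 members, up to 3 per list and direction with the smallest P among those past the thresholds, and the 5 most correlated; 1 gene that the rule names is not reported here. Members, lists and tests were chosen with earlier results of these data known.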

Additional observations from a re-analysis of the deposited data

Results flagged for a closer look

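For Fcgr2b, Fcgr3, Tyrobp and Cd84, every anti-PD-1 tumor lay below every isotype tumor in non-obese mice and above every isotype tumor in obese mice. Of all genes, 5.37% had such separation in the lower direction in non-obese mice and 5.45% in the higher direction in obese mice. The share with both is not given here. The change with anti-PD-1 on the log2 scale was larger in obese than in non-obese mice by 1.15 for Fcgr2b, 2.35 for Fcgr3, 1.71 for Tyrobp and 2.08 for Cd84. The difference was not tested, since the non-obese tumors had been used to choose the genes.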

How the results depend on the processing

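Under every alternative run, anti-PD-1 tumors had the higher fitted level of all 10 genes in obese mice and the lower one in non-obese mice. The count past a fold change above 2 with P below 0.05 in obese mice, 3 by the main analysis, was 5 with at least 10 counts in every tumor and 7 with P below 0.05 alone, an alternative chosen after seeing the data. With the replicate number as a block (replicate block) it was 1, Fcgr4, beside 311 of all genes, and the calls on Fcer1g and Csf1r were lost. For tumors of different groups with the same number, deviations from the group means had a mean r of 0.133 (-0.264 to 0.563). With different numbers the mean was -0.0623 (-0.555 to 0.447). The labels do not say whether the numbers pair tumors, and these correlations cannot decide it. Leaving out each tumor gave 1 to 6, beside 187 to 555 of all genes in the higher direction. The count with an FDR below 0.05, 0 by edgeR, was 2 with DESeq2 and 0 to 1 when leaving out each tumor. The same count over all genes was 105 with DESeq2 and up to 76 when leaving out each tumor. The described count in non-obese mice, 5, ran from 3 to 8 when leaving out each tumor. Over all genes, 293 passed in the higher direction, 442 without a filter and 156 under the stricter one. With Fcgr2b and Fcgr3 summed, the non-obese log2 change was -1.05. The cause of these shifts was not tested. Genes at the level of Cd84 rest on as few as 29 counts.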
